A study of Mus musculus with 2 samples.

Results

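The 8 genes described here mark Schwann cells and the myelin they make, namely *Sox10*, *Egr2*, *Erbb3*, *Pmp22*, *Mbp*, *Cnp*, *Mag* and *S100b*. They were chosen by gene symbol, with earlier results of these arrays already known, among them a lower median level of Schwann cell genes on the array titled -/-, so their differences are given as a description. All 8 were present, read by 22 of the 22626 probe sets that are not controls and paired with only that symbol, from 1 probe set for *Pmp22* and *Mag* up to 8 for *Mbp*. Over the whole array 12393 genes were read.

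The data came from 2 Affymetrix MOE430A arrays of mouse cochleae at embryonic day 18.5 (E18.5), 1 titled -/- and 1 titled +/+, each labelled as made from 8 cochleae. Embryos came from matings of mice heterozygous for a disrupted *Igf1* gene on a C57BL/6J background, and the otic capsule was kept while vestibular tissue was left out. The array titled -/- is described in its source name as Igf-1 +/+, and the array titled +/+ as Igf-1 -/-, so the genotype behind each array is not settled. Values are therefore given under the -/- title or under the +/+ title. Tissue from several embryos was pooled and there was 1 array per title, so nothing was tested and the precision is limited by there being so few arrays.

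Levels are the deposited log2 values, and a difference is that log2 value under the -/- title less the value under the +/+ title, from which the median over all probe sets, 0.022, was then taken away. *Igf1* itself had levels of 11.03, 7.37 and 7.23 under the -/- title, against 11.42, 8.11 and 7.78 under the +/+ title, at its 3 probe sets. All 3 were lower under the -/- title, with centred differences of −0.42, −0.75 and −0.58, which is the direction of the titles and not of the source names. Which part of the gene they read, relative to its disruption, was not examined, so the titles are kept as names only. Lowest values are listed at exactly 0, for 1028 probe sets under the -/- title and 1310 under the +/+ title. Genes read by several probe sets offer the only repeat measurement. Their differences had a pooled SD of 0.10 at mean levels of 7.68 or more (3304 probe sets of 1360 genes), 0.27 between 5.06 and that level, and 1.23 below 5.06. These 3 ranges are called high, middle and low levels here. The SD holds no spread between animals or pools.

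Schwann cells of the auditory nerve and spiral ganglion arise from the neural crest and wrap the axons and cell bodies of auditory neurons in myelin. The transcription factor SOX10 specifies and maintains the lineage, and the receptor ERBB3, which binds axonal neuregulin together with ERBB2, carries the signal for survival and growth. EGR2, also known as KROX20, then switches on the myelin programme together with SOX10. Its products include the membrane protein PMP22, the compacting protein MBP, the enzyme CNP and the adhesion protein MAG, while S100B is a calcium-binding protein used as a marker of Schwann cells and other glia. At birth myelination of the mouse cochlear nerve is only beginning. Several of these genes are not restricted to Schwann cells: oligodendrocytes make MBP, CNP, MAG and SOX10, melanocytes and otic epithelium make SOX10, and PMP22 is made by many connective tissue cells.

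Since SOX10 and EGR2 act on the other genes of the group, the RefSeq promoter windows (GRCm38.p6, 250 bases before to 50 after each annotated start) were searched on both strands for a SOX motif, ACAAAG, and an EGR motif, GTGGGCG, which do not overlap each other. Windows of *Cnp*, *Mag*, *Egr2*, *Pmp22* and *S100b* were searched, and those of *Sox10*, *Erbb3* and *Mbp* were not searched here. The SOX letters were found in 2 of these 5 genes, *Cnp* and *Mag*, beside 21% of all 27025 genes with a window. The EGR letters were found in 1, *Egr2* itself, beside 8.99% of all genes. The stretches around the matches are shown because these are the members' windows that hold such letters, 5′ to 3′ on the strand of the gene, with the motif or its reverse complement in capitals. They lie at chr11:100574732-100574817 (plus strand) for *Cnp*, 167 bases before the start, and at chr7:30914944-30915029 (minus strand) for *Mag*, 126 and 67 bases before a pair of annotated starts. That of *Egr2* lies at chr10:67535428-67535514 (plus strand), 31 bases before the most upstream of its annotated starts. The windows of the other annotated starts of *Egr2* and *Mag* held neither motif.
Cnp, SOX motif: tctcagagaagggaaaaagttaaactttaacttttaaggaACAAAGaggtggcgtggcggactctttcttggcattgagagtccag
Mag, SOX motif, opposite strand: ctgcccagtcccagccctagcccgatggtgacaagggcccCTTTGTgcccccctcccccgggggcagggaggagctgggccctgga
Egr2, EGR motif, opposite strand: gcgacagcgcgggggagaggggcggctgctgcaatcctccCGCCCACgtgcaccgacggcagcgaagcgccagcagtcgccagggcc
A match of so few letters is a description of the window and not a site of binding, and its absence from the windows of *Pmp22* and *S100b* says only that these letters are not there.

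Of the 8 genes, 7 were lower under the -/- title when each was read from the probe set of its highest mean level, and only *Pmp22* was higher. Among all genes above 0 on an array, 48.2% were lower. The median difference of the 8 genes was −0.22, against 0.0028 for all genes. Over single probe sets, 18 of 22 were lower, against 48.4% of all probe sets. Most of these differences were small: 1 member probe set was lower by more than 1 log2 unit, beside 5.04% of all probe sets, and none was higher by more than 1, beside 6.27%. A difference of more than 0.5 lower was found for 4 member probe sets, 3 of them of *Mbp*, beside 10.3% of all probe sets, and of more than 2 lower for none, beside 1.42%. In bulk tissue, fewer cells of a type and less RNA per cell cannot be told apart.

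**Figure D1:**
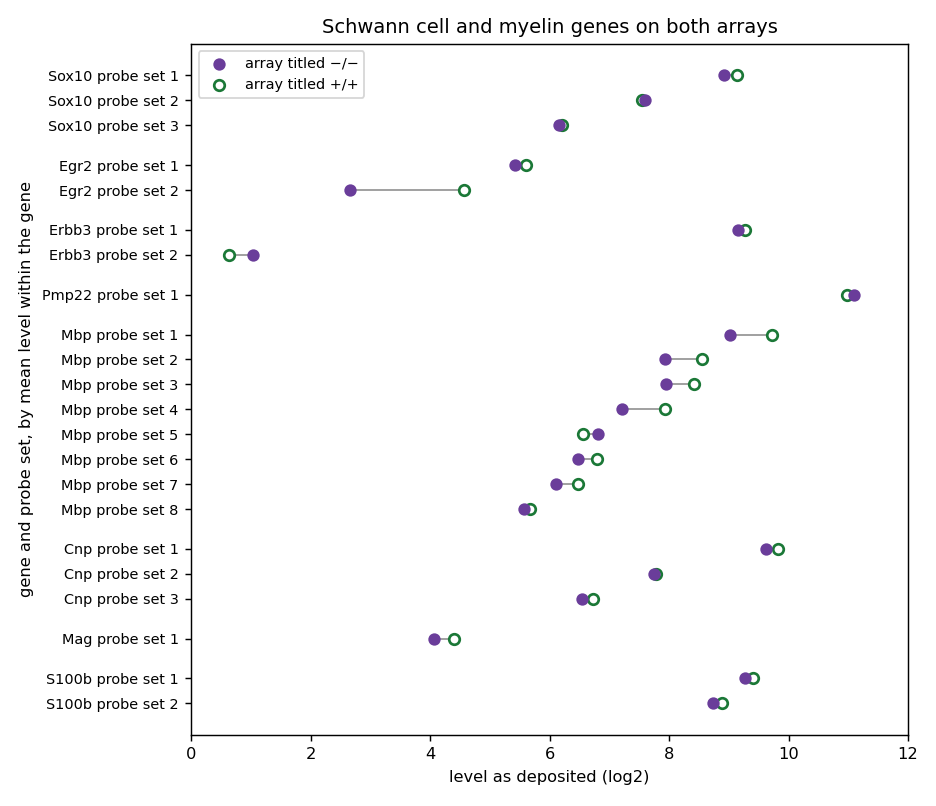
Level as deposited (log2, horizontal axis) of each of the 22 probe sets of the 8 genes (vertical axis, ordered by mean level within a gene) under the -/- title (filled purple) and under the +/+ title (open green), 1 value per array, joined by a line. The lines of *Mbp* probe sets 1 to 4 are long at levels above 7, while the longest line, that of the weaker *Egr2* probe set, is read below a level of 5.

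Of the member regulators read at a high level, *Sox10* and *Erbb3*, *Sox10* had the larger difference. Its brightest probe set was at 8.91 under the -/- title and 9.14 under the +/+ title, a difference of −0.25. This is 2.50 times the SD between probe sets at that level, and 4.34% of the 4958 genes of high level had a difference as low or lower. The other *Sox10* probe sets did not share it: they were at 7.59 and 6.15 under the -/- title, against 7.55 and 6.21 under the +/+ title, differences of 0.02 and −0.08 that lie within the SD of 0.27 at middle levels. As a mean over its 3 probe sets *Sox10* differed by −0.10.

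*Erbb3* was at 9.15 under the -/- title and 9.27 under the +/+ title for its brighter probe set, a difference of −0.14, or 1.42 times the SD. Of the 4958 genes of high level, 15% had a difference as low or lower. The other *Erbb3* probe set was at 1.03 under the -/- title and 0.64 under the +/+ title, close to the floor, where the SD was 1.23. The mean over both was 0.12, so the direction of *Erbb3* rests on the brighter probe set.

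*Egr2* was read at levels where the spread between probe sets is wider. One probe set was at 5.42 under the -/- title and 5.61 under the +/+ title, a difference of −0.22 that is 0.80 times the SD at middle levels. The other was at 2.65 under the -/- title and 4.57 under the +/+ title, a difference of −1.93, the one member value beyond 1 log2 unit. When levels under 4.11, the 25th percentile, were set to that level, this difference was −0.46.

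*Egr2* is also an immediate-early gene, and most of that group was lower on the same array. Of 13 other immediate-early genes above 0 on an array, 10 were lower and 3 higher, with a median of −0.54 and a log2 summed level (the log2 of the summed linear levels, to which the brightest genes add most) of 11.00 under the -/- title and 11.71 under the +/+ title. *Fos*, *Egr1*, *Nr4a1* and *Btg2*, all of high level, differed by −1.38, −1.07, −0.87 and −0.61. Those beyond 1 log2 unit at low levels went both ways, with differences of 1.25 for *Egr3* and 1.49 for *Egr4*, while *Fosb* was at 3.58 under the -/- title and 5.55 under the +/+ title, and *Arc* was listed at 0 on both arrays. The part of this group in the *Egr2* values was not tested.

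Myelin basic protein stood apart from the other members. The brightest *Mbp* probe set was at 9.01 under the -/- title and 9.71 under the +/+ title, a difference of −0.72, which is a ratio of 0.606 on the linear scale after centring. The next probe sets were at 7.93 and 7.95 under the -/- title, against 8.54 and 8.41 under the +/+ title, differences of −0.63 and −0.48. All 3 high-level probe sets were thus lower by more than the SD of 0.10 between probe sets at such levels, the brightest by 7.18 times that SD.

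Among the 6 members of high level, 5 were lower, against 51.6% of all 4958 genes of high level. *Mbp* was the only one lower by more than 0.5, a size reached in this direction by 0.524% of these genes. A difference as low as that of *Mbp*, or lower, was found for 9 of the 4958 genes, *Mbp* included.

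**Figure D2:**
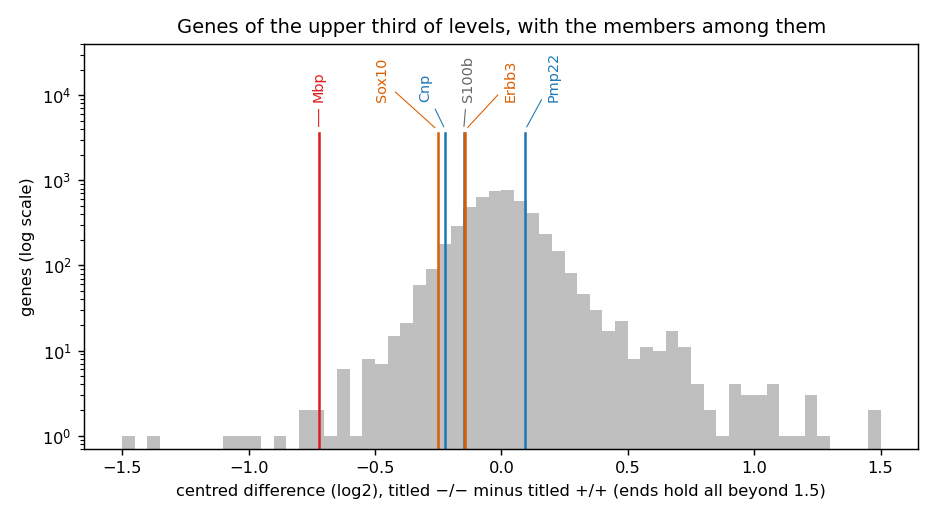
Number of genes (log scale) by centred difference (log2, -/- title minus +/+ title) among the 4958 genes of high mean level, 1 probe set per gene, with the outermost bars holding all values beyond 1.5. Vertical lines mark the 6 members of this level: *Mbp* at −0.72 lies in the sparse left tail, *Sox10* and *Cnp* at the left shoulder, *S100b* and *Erbb3* at −0.15 and −0.14, and *Pmp22* right of 0.

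The remaining *Mbp* probe sets, of middle level, were mostly lower as well. The fourth in mean level was at 7.21 under the -/- title and 7.92 under the +/+ title, a difference of −0.73. The sixth, seventh and eighth differed by −0.35, −0.38 and −0.13. The fifth went the other way, at 6.82 under the -/- title and 6.55 under the +/+ title, a difference of 0.24. Its size is below the SD of 0.27, but that SD is taken around the mean of each gene. For *Mbp* that mean was −0.40, so this probe set stood apart from the others. It is the only *Mbp* probe set ending in _s_at. Which transcripts of the locus each *Mbp* probe set reads was not given in any source used here.

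Probe sets ending in _x_at hold probes that can match unrelated sequences, and 3 of the 8 *Mbp* probe sets are of this kind, with differences from −0.38 to −0.73. The 4 that end in neither suffix were all lower, from −0.13 to −0.72 with a median of −0.41. Over all 8 the mean was −0.40 with an SD of 0.33 between probe sets. These 8 values share 1 gene and 2 RNA pools and are not replicates of a condition.

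**Figure D3:**
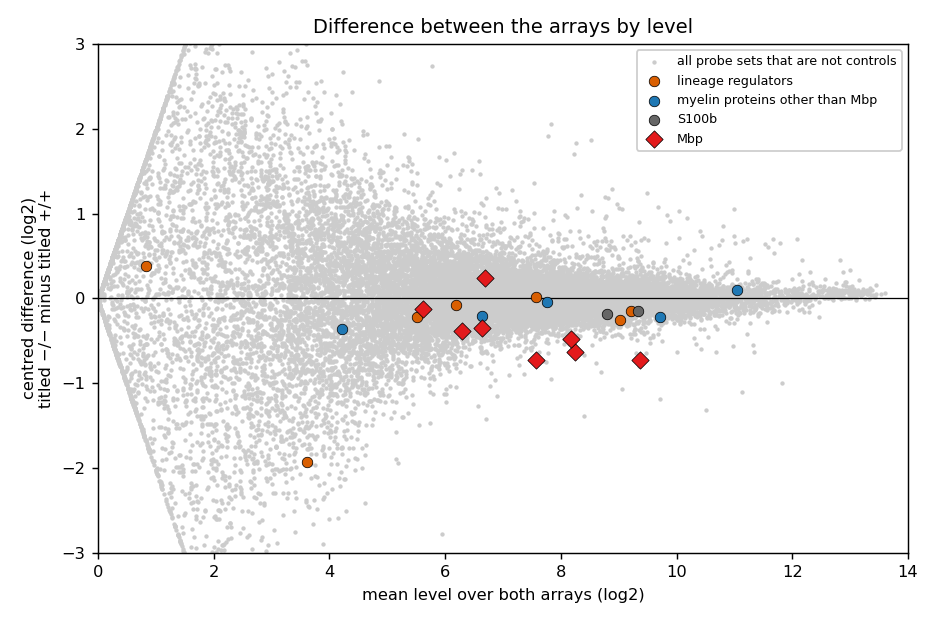
Centred difference (log2, -/- title minus +/+ title) plotted over mean level (log2, both arrays), with 1 grey point per probe set, 136 of them beyond the vertical range of 3. Red diamonds are the 8 *Mbp* probe sets, and circles the lineage regulators (orange), the other myelin proteins (blue) and *S100b* (grey). The 3 *Mbp* probe sets above a level of 7.68 lie below most grey points of their level, and the *Egr2* probe set at −1.93 lies in the wide spread at low level.

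The other myelin proteins differed less than *Mbp*. *Pmp22*, a membrane protein of compact myelin, was at 11.10 under the -/- title and 10.99 under the +/+ title, a difference of 0.09 that is smaller than the SD of 0.10. *Cnp*, the cyclic nucleotide phosphodiesterase of uncompacted myelin, was at 9.62, 7.75 and 6.54 under the -/- title, against 9.82, 7.78 and 6.73 under the +/+ title. All 3 probe sets were lower, by 0.22, 0.05 and 0.21 after centring. A difference as low as that of the brightest, or lower, was found for 6.27% of the 4958 genes of high level. The brightest *Cnp* probe set ends in _x_at, and without it the difference of *Cnp* was −0.05.

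*Mag*, which holds the inner myelin layer to the axon, had 1 probe set, at 4.06 under the -/- title and 4.39 under the +/+ title. Its difference of −0.36 was 0.29 times the SD of 1.23 at low levels, so it could not be told from 0. *S100b* was at 9.28 and 8.73 under the -/- title, against 9.41 and 8.88 under the +/+ title. Both *S100b* probe sets were lower, by 0.15 and 0.18, and differed from each other by less than the SD at their level. Of the 4958 genes of high level, 13.9% had a difference as low as that of the brighter one, or lower.

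As groups, the 3 regulators *Sox10*, *Egr2* and *Erbb3* had a median difference of −0.22 and the 4 myelin protein genes one of −0.29. Without *Mbp* the myelin protein genes had a median of −0.22, which is the value of the _x_at probe set of *Cnp*, while that of the regulators is the value of *Egr2*. Without probe sets ending in _x_at or _s_at *Cnp* was at −0.05, so neither median ranks the groups. The log2 summed level of the 4 myelin protein genes was 11.78 under the -/- title and 11.89 under the +/+ title. Without *Mbp* it was 11.55 under the -/- title and 11.53 under the +/+ title. The myelin proteins thus differed among themselves: *Mbp* was lower, *Cnp* was lower by less, *Pmp22* was within the spread and *Mag* was too dim to tell.

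Other genes of myelin were lower under the -/- title in most cases. Of 24 listed, 16 were read, *Mobp* and *Gjc3* were listed at 0 on both arrays, and 11 of the remaining 14 were lower, with a median of −0.31. The 4 of high level were all lower. The tetraspanin gene *Cd9* was at 10.16 under the -/- title and 10.44 under the +/+ title, a difference of −0.30. *Cldn11*, which seals myelin of oligodendrocytes and also the basal cells of the stria vascularis, was at 8.67 under the -/- title and 9.09 under the +/+ title, a difference of −0.45. The membrane raft gene *Mal* and the adhesion gene *Cadm4* differed by −0.51 and −0.16. These 4 sizes exceed the SD of 0.10 between probe sets.

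At low levels the list scattered in both directions. *Cntn2*, an adhesion gene of the juxtaparanode, was at 2.51 under the -/- title and 4.05 under the +/+ title. The connexin gene *Gjb1* was listed at 0 under the -/- title and was at 1.85 under the +/+ title. The tight junction gene *Cldn19* and the oligodendrocyte gene *Mog* went the other way, at 1.36 and 1.09 under the -/- title and listed at 0 under the +/+ title. When low levels were set to 4.11, 8 genes of the list were lower and 1 was higher, and the median was −0.14.

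Other regulators of the Schwann cell lineage were split evenly, with 11 lower and 11 higher of 22 read and a median of −0.0050, or 0.017 without centring. *Fabp7*, made by Schwann cell precursors and radial glia, was higher under the -/- title, at 10.85 against 10.53 under the +/+ title, a difference of 0.30. *Id2*, *Hdac1* and *Yy1* differed by −0.06, 0.04 and −0.19. *Pou3f2*, a POU factor of neurons and of Schwann cells, was the only one beyond 1 log2 unit, with a difference of 1.72 at a low level.

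In the neuregulin and ERBB pathway, 10 of 14 genes read were lower and 4 higher, with a median of −0.08, and no gene passed 1 log2 unit. Among its 4 genes of the highest level *Erbin* differed by −0.16, more than the SD of 0.10, at its brightest probe set only. The other *Erbin* probe sets were at −0.02 and 0.08. The other genes differed by less than the SD, with *Ptpn11* at 0.0088, *Bace1*, the protease that cleaves neuregulin, at −0.02 and *Gab1* at −0.03. *Erbb2*, the signalling partner of ERBB3, was named after its value was seen. It was at 6.68 under the -/- title and 7.06 under the +/+ title, a difference of −0.40, larger than the SD of 0.27 at middle levels. *Nrg1* was not analysed here.

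**Figure D4:**
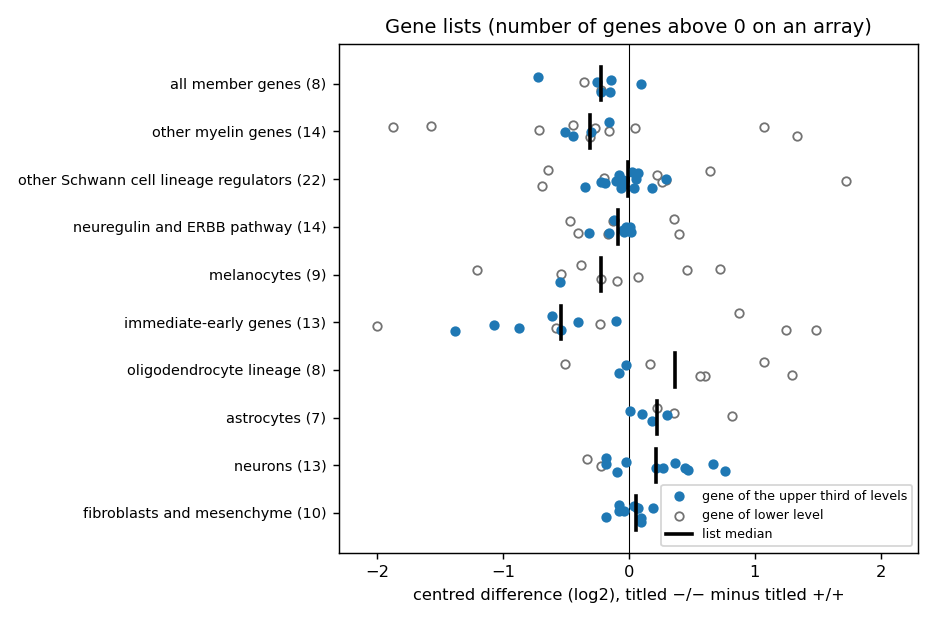
Centred difference (log2, -/- title minus +/+ title) of the genes of 10 lists, 1 point per gene above 0 on an array, with list medians as black bars. Blue points are genes of mean level 7.68 or more and open points those below it. The members and the other myelin genes have medians of −0.22 and −0.31, the other lineage regulators one near 0, and neurons and astrocytes medians of 0.22.

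Markers of other cells that share these genes went different ways. For oligodendrocytes, 3 of 8 genes above 0 on an array were lower and 5 higher, with a median of 0.37. With low levels set to 4.11 the median was 0.00, with 2 genes lower and 2 higher. Above the median gene level only 2 genes remained, *Pdgfra* and *Cspg4*, with a median of −0.05. That range leaves out *Olig1* and *Olig2*, so it cannot show their direction. The log2 summed level of the list was 11.29 under the -/- title and 11.27 under the +/+ title. *Olig1* was at 7.54 under the -/- title and 6.22 under the +/+ title, a difference of 1.30, and *Olig2* at 4.10 under the -/- title and 3.47 under the +/+ title, opposite in direction to *Mbp*. Of the defining markers *Mobp* was at 0 on both arrays and *Mog*, *Nkx2-2* and *Nkx6-2* at 0 under the +/+ title. The brightest genes of this list, *Pdgfra* and *Cspg4*, which mesenchyme also expresses, differed by −0.08 and −0.02. *Myrf*, the regulator of central myelin genes, differed by −0.51 at a low level.

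Melanocytes also express *Sox10*, and their genes were lower in 6 of 9 and higher in 3, with a median of −0.22 and a log2 summed level of 9.85 under the -/- title and 10.15 under the +/+ title. *Dct* and *Pmel*, both of melanosomes, differed by −0.54 each, *Mitf* by −0.38 and *Kit* by 0.47, while *Gpnmb* differed by −1.21 at a low level. None of these 9 was at 0. The part of melanocytes or of oligodendrocytes in the values of *Sox10* and *Mbp* was not tested.

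The axons that Schwann cells wrap were represented by 13 neuronal genes, of which 6 were lower and 7 higher, with a median of 0.22. Their log2 summed level was 13.13 under the -/- title and 12.94 under the +/+ title, and none was at 0. The neurofilament genes *Nefl* and *Nefm* each differed by −0.18, while *Stmn2* and *Uchl1* differed by 0.45 and 0.37. Beyond 0.5, *Tubb3* and *Elavl3* were higher, with differences of 0.67 and 0.76, and 0 neuronal genes were lower. Astrocyte genes were higher in 7 of 7 above 0 on an array, with a median of 0.22 and a log2 summed level of 11.97 under the -/- title and 11.71 under the +/+ title. Their brightest, *Gja1*, *Fgfr3*, *Aldoc* and *Slc1a3*, which other cochlear cells also express, differed by 0.31, 0.11, 0.19 and 0.0082. *Aldh1l1* and *Aqp4* differed by 0.82 and 0.22 at middle levels, and *Gfap* by 0.36 at a low level. Weaker probe sets of these genes went both ways. At low levels, those of *Gfap* and *Aqp4* differed by 2.18 and 0.83, and that of *Aldoc* by −1.06. The dimmest of *Slc1a3* differed by −0.39 at a middle level. *Slc1a2* was at 0 on both arrays. The genes of fibroblasts and mesenchyme, cells that also express *Pmp22*, had a median of 0.06, with 4 lower and 6 higher of 10 and a log2 summed level of 15.61 under the -/- title and 15.53 under the +/+ title. *Col1a2*, *Col3a1*, *Col1a1* and *Dcn* differed by 0.10, 0.07, 0.19 and −0.07. The part of mesenchyme in the *Pmp22* value was not tested.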

How the data were processed

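The 2 Affymetrix MOE430A arrays used here were hybridised by the authors with biotin-labelled cRNA, and 1 log2 level was deposited for each probe set and array. Their methods describe further RNA pools and arrays, which were not analysed here. MAS5.0, RMA and multi-mgMOS (PUMA) are named in their methods, but the method and the scaling between arrays behind the deposited levels are not given in any source used here. The base was read from the values, whose highest is 13.64.

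Of 22690 probe sets, 64 controls were left out. A single gene symbol was paired with 20380 others, several symbols with 691 and no symbol with 1555, and 20351 matched the RefSeq gene table of GRCm38.p6 by gene identifier. Probe sets with several symbols named no gene. Each gene was read from its probe set of highest mean level. The 292 genes at 0 on both arrays entered no count of lower or higher genes and no list median. Ranges of level are the tertiles of the mean level over probe sets.

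All 8 members are named. Of each gene list the genes beyond 1 log2 unit and the 4 of the highest level are named. Others were added after their values were seen (*Erbb2*, *Olig2*, *Nkx2-2*, *Nkx6-2*, *Arc*, *Slc1a2*, *Mobp*, *Gjc3*, *Tubb3*, *Elavl3*, *Aldh1l1*, *Aqp4*, *Gfap*). The members, lists and settings were chosen with earlier results of these data known. With 1 array per title no test was possible. The alternatives were no centring, quantile normalization, loess with a span of 0.3, values raised to the 25th percentile, the mean over probe sets, no _x_at or _s_at probe sets, only genes above the median level of 7.10, and limits of 0.5 and 2 log2 units. The steps were tested on simulated arrays. Computations used pandas 2.3.3, numpy 2.4.6 and statsmodels 0.14.6 in Python 3.11.15, and figures matplotlib 3.10.9.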

Additional observations from a re-analysis of the deposited data

How the results depend on the processing

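The differences of the 8 genes kept their signs without centring and after quantile normalization, loess and raising to the 25th percentile, with *Mbp* between −0.70 and −0.72. With the mean over probe sets, *Mbp* was −0.40, *Sox10* −0.10, *Egr2* −1.08 and *Erbb3* 0.12, so that 2 members and 1 regulator were higher, the regulators' median was −0.10, 2 astrocyte genes were lower and the neuronal median was 0.37. When low levels were set to the 25th percentile, 1 other myelin gene and 2 oligodendrocyte genes were higher, and the immediate-early median was −0.38. Above the median gene level, where fewer genes are counted by construction, the genes lower and higher were 4 and 1 of other myelin genes, and 2 and 0 of melanocyte genes, whose median was −0.54. In that range 6 other lineage regulators, 2 ERBB pathway genes, 4 astrocyte genes, 0 oligodendrocyte genes and 0 immediate-early genes were higher. Member probe sets lower by more than 0.5 were 4 (10.3% of all probe sets), and by more than 2 were 0 (1.42%). If the source names hold in place of the titles, every sign turns, and the medians are 0.22 for the members, 0.22 for the regulators and 0.29 for the myelin proteins. No paired analysis was possible because there is 1 array per title. Low signal limits *Mag*, *Egr2* and the weaker *Erbb3* probe set.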
